A study of Mus musculus with 6 samples.

Results

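Naive-like CD8 T cells of the fibrotic mouse lung were selected on measured UMIs (unique molecular identifiers, each standing for 1 captured RNA molecule). A barcode was kept if it had at least 1000 UMIs, at least 500 genes and at most 10% of its UMIs in mitochondrial genes, and it was then gated on 8 genes. The gate asked for at least 2 UMIs of Cd3e, Cd3d and Cd3g together, which encode chains of the CD3 complex, and at least 1 UMI of Cd8a and Cd8b1 together, which encode the CD8 coreceptor. It also asked for no UMI of Cd4, of the chemokine gene Ccl5, which antigen-experienced CD8 T cells transcribe, and of the B cell gene Cd79a. In all, 1155 of 25704 quality barcodes passed (4.49%), which is 56.5% of the 2046 barcodes gated as CD8 T cells whatever their Ccl5. The IgG1-treated mice gave 206, 163 and 243 naive-like barcodes, and the ipilimumab-treated mice gave 150, 194 and 199.

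All 6 mice were 12-week-old male hCTLA4 mice, in which human CTLA4 has been knocked in, and all had received bleomycin by the oropharyngeal route (1.25 U per kg in each of 2 doses, 2 weeks apart). Antibody treatment began 21 days after the second bleomycin dose and lasted 4.5 weeks, with repeated doses of 5 mg per kg each. The treated mice (n = 3) were given ipilimumab, an antibody against human CTLA4. Control mice (n = 3) were given an IgG1 isotype antibody instead. The right lung of each mouse was digested and put into a 10x Genomics 3′ library of its own, so the p-values below measure the spread between mice with 1 library each. Mice without bleomycin were not analysed here. The paper's histology methods state that lungs were perfused with PBS. Its single-cell methods name no step that separated cells of the lung tissue from cells in its vessels. The comparison asks what ipilimumab does to this pool of CD8 T cells after fibrogenic injury.

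A naive CD8 T cell has left the thymus but has not yet met its antigen. It is kept in a resting, recirculating state by the transcription factors LEF1 and TCF1 (gene Tcf7), by the IL-7 receptor, and by CCR7, which guides it into lymph nodes. CTLA4 competes with the costimulatory receptor CD28 for the same ligands and restrains activation, and T cells carry more of it once activated.

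The genes that define the cells are spread over the genome. In the GRCm38 build, Cd8a and Cd8b1 are neighbors on chromosome 6, at 71373427 to 71379173 and 71322788 to 71337494 on the plus strand. Lef1 lies on the plus strand of chromosome 3 (131110471 to 131224356), Tcf7 on the minus strand of chromosome 11 (52252371 to 52283014), Dapl1 on the plus strand of chromosome 2 (59484653 to 59505020), and Ccl5, whose UMIs the gate excludes, on the minus strand of chromosome 11 (83525778 to 83530518). Ctla4 lies on the plus strand of chromosome 1 (60887000 to 60915832). Part of this gene carries human sequence in the knock-in, and its reads were counted against the mouse gene model.

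The matrices hold from 37666042 to 48612412 UMIs per library. Quality barcodes took from 92.1% to 92.3% of them in 5 libraries and 80.8% in ipilimumab mouse 1, which also had the most quality barcodes (5170, against 3344 to 4530 in the other mice). Naive-like barcodes had a median of 8884, 9200 and 11274 UMIs in the IgG1-treated mice and 10633, 9163 and 9418 in the ipilimumab-treated mice, and their summed profiles held from 1546281 to 2836983 UMIs. Over the 15 pairs of libraries, no barcode sequence was naive-like in both, and from 0 to 9 quality barcodes were shared per pair. Of the naive-like barcodes, 2 of IgG1 mouse 1 were also quality barcodes in ipilimumab mouse 1, and 1 of IgG1 mouse 3 and 1 of ipilimumab mouse 3 were in IgG1 mouse 2. Levels are given below as CPM, a gene's UMIs per 1000000 UMIs of a mouse's summed naive-like barcodes, and errors of fold changes are SEs over 3 mice per group.

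The library of IgG1 mouse 3 stood apart. The summed level of the Y-linked genes Ddx3y, Eif2s3y, Kdm5d and Uty in naive-like cells lay at 509, 510.0 and 256 CPM in the IgG1-treated mice and at 507, 497 and 533 CPM in those given ipilimumab. In that mouse 44.4% of naive-like barcodes had no UMI of these genes, against 5.15% to 9.33% in the other mice. Restricted to barcodes with at least 5000 UMIs, the share was 44.2% there and 4.28% to 6.53% elsewhere. It was 43.6% in the Ccl5-positive CD8 T cells, 43.4% in the CD4 T cells and 43.0% in the B cells of the same library, and Xist, which marks female cells, gave from 0 to 4 UMIs per library. The shares, the counts of genes and those list medians and fold changes that moved by over 1.5 times are therefore also given without this mouse.

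Most naive-like barcodes had UMIs of genes listed as markers of other cell types. There were 5 or more in 811 of 1155 barcodes, with a median of 5 to 7 per barcode in each mouse. This count left out Cd74 but included Pecam1, Calcrl, Ctsd and Ighm, which many gated barcodes carried. Pecam1 alone had a mean of 239 CPM. How far the UMIs of these genes came from other cells was not tested. Barcodes rich in such UMIs were few. For the count of these, Cd74, Pecam1, Calcrl, Ctsd and Ighm were all left out. Barcodes with at least 20 such UMIs numbered 6, 4 and 2 in the IgG1-treated mice and 5, 4 and 9 in the ipilimumab-treated mice. These few held from 44.6% to 90.0% of all such UMIs in the naive-like cells of a mouse. The macrophage and monocyte list (16 genes, 2 of them at 0, the most abundant Lyz2) summed to 1779, 1265 and 168 CPM in the IgG1-treated mice and to 170.1, 1032 and 1080 CPM in the ipilimumab-treated mice. Cd44, a memory marker that macrophages also express, moved with them. It stood at 173, 149.7 and 57.5 CPM in the IgG1-treated mice and at 27.8, 148 and 229.6 CPM in the ipilimumab-treated mice. In the 1125 barcodes with under 20 such UMIs it was 44.3, 25.8 and 44.6 CPM against 24.1, 21.0 and 48.8 CPM. Values without these barcodes are given beside the results they move.

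**Figure D1:**
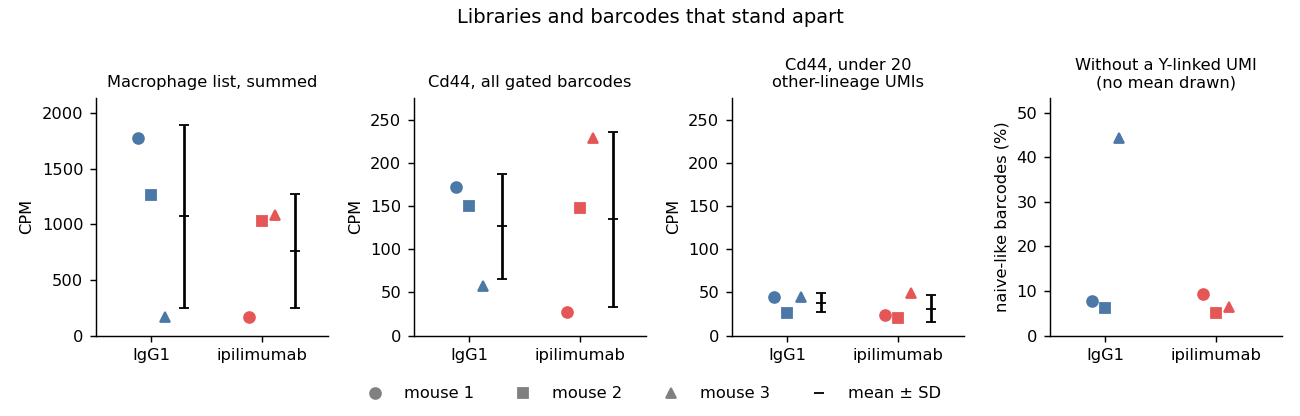
Each point is 1 mouse (circle, square and triangle for mouse 1, 2 and 3; bars, mean ± SD). The panels plot, in naive-like CD8 T cells, the summed CPM of the macrophage and monocyte list, Cd44 in CPM over all gated barcodes and over those with under 20 UMIs of other lineages, and the percentage of barcodes without a Y-linked UMI, where IgG1 mouse 3 is at 44.4%.

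The label held against its markers. Lef1 had a UMI in at least 96.0% of the naive-like barcodes of each mouse, at 1801 (lowest), 1988 (median) and 2321 CPM (highest). Tcf7 stood at 302, 348 and 450.5 CPM in the same order, and Dapl1, a further marker of the rule, at 175, 203 and 227 CPM. The coreceptor genes were held by the gate itself, with Cd8a at 142, 152 and 146 CPM in the IgG1-treated mice and at 129, 116 and 110.1 CPM in those given ipilimumab, and Cd8b1 between 266 and 386 CPM. At least 2 of 4 division genes had a UMI in only 1 to 5 naive-like barcodes per mouse.

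Genes of a memory or innate-like program were not all low in these cells. Gzma, which encodes granzyme A, ranged from 1.87 to 11.4 CPM and lay at or below its level in B cells (55.7 ± 21.3 CPM, SD, n = 6 mice), so it could not be told from free RNA. Klrd1 (CD94, a partner of NKG2 receptors) had a UMI in 60.0% to 67.5% of naive-like barcodes per mouse, Nkg7 (a granule protein) in 58.0% to 71.6%, Il2rb (a chain of the IL-2 and IL-15 receptors) in 59.7% to 71.8% and Ctsw (cathepsin W) in 44.2% to 53.5%. In B cells, which should lack all 4 and had a median of 5282 to 6741 UMIs, these shares averaged 1.53%, 1.63%, 2.50% and 1.35%. Per total UMIs, the mean levels were 129 CPM of Klrd1, 162 of Nkg7, 160.3 of Il2rb and 78.8 of Ctsw in the naive-like cells, against 5.53, 15.5, 13.6 and 3.35 CPM in the B cells. At a fixed depth of 1000 UMIs per barcode, Nkg7 had a UMI in 15.1% of naive-like barcodes of the IgG1-treated mice and 15.4% of those of the ipilimumab-treated mice, against 0.739% of B cells. Some other genes of the memory list were lower, such as the transcription factor gene Tbx21 (mean 8.51 CPM) and the chemokine receptor gene Cxcr3 (5.74 CPM). Ly6c2 was not (130.5 CPM). Cd44 was at 130.8 CPM over all gated barcodes, but at 21.0 to 48.8 CPM per mouse in those with under 20 UMIs of other lineages. In B cells it was at 538 CPM. Itgae, the CD103 integrin chain, was higher than in the Ccl5-positive CD8 T cells in 6 of 6 mice (35.8 against 16.4 CPM). It stood at 40.2, 57.7 and 26.8 CPM in the IgG1-treated mice and at 28.5, 34.0 and 27.5 CPM in the ipilimumab-treated mice.

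The gate's limit lies between 0 and 1 UMI of Ccl5. Pooled over the 6 mice, the 130 CD8 barcodes with exactly 1 Ccl5 UMI, just outside the gate, had 1658 CPM of Lef1, 199.8 CPM of Nkg7 and 2.36 CPM of Gzma, against 2018, 162 and 4.56 CPM in the 1155 barcodes inside it and 781, 866 and 1140 CPM in the 666 barcodes with at least 6 Ccl5 UMIs. Ctla4 was at 149 CPM inside the gate, 240.5 CPM with 1 Ccl5 UMI and 234 CPM with at least 6. Free Ccl5 RNA was present in every library. Among B cells, 4.05%, 4.45% and 6.89% had a Ccl5 UMI in the IgG1-treated mice and 11.9%, 6.18% and 5.37% in the ipilimumab-treated mice, and the near-empty barcodes (at most 50 UMIs) held 925, 853 and 1168 CPM of Ccl5 against 1521, 1275 and 858 CPM. The library with most of it, ipilimumab mouse 1, is the one with fewest naive-like barcodes. Shares with barcodes of 1 Ccl5 UMI let in are given below, and the part of free RNA in the counts was not tested further.

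Compared with the Ccl5-positive CD8 T cells of the same mice (891 barcodes), 16 of 24 genes of a naive and stem-like list were higher in the naive-like cells in 6 of 6 mice and 1, Ets1, was lower in 6 of 6. Of the 20 genes of a memory and virtual memory list, 19 were lower in 6 of 6 mice, as were 17 of 18 cytotoxic effector genes and 19 of 22 cell division genes. The gate itself sets these differences, so they are given without a test. Genes with a mean of at least 50 CPM in the naive-like cells were ranked by their log2 ratio after 5 CPM had been added to each level, and those named were chosen after their values were seen. Igfbp4, which encodes a binding protein of insulin-like growth factors, came first (136 ± 18.9 against 24.8 ± 11.8 CPM, SD, n = 6 mice). The glutamate receptor gene Gria3 came second (62.3 against 9.42 CPM), and without the added 5 CPM its ratio was the higher. Ifngr2, a chain of the interferon gamma receptor, stood at 149 against 30.7 CPM, and Igf1r, a receptor of insulin-like growth factors, at 149.7 against 51.5 CPM.

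Compared with Ccl5-negative, Foxp3-negative CD4 T cells (1261 barcodes), 12 of the 24 naive and stem-like genes were higher in the naive-like CD8 cells in 6 of 6 mice and 5 were lower in 6 of 6. The 5 were S1pr1, Foxo1, Ets1, Igfbp4 and Il6ra. The lymph node homing gene Ccr7 was among the 12, at 566 ± 51.1 against 399.9 ± 51.1 CPM (SD, n = 6 mice), whereas Tcf7 was at 365 ± 62.3 against 373 ± 68.0 CPM. By the same ranking, with at least 50 CPM in the naive-like cells and 5 CPM added, the first 4 genes in favor of the CD8 cells were Bend4 (192 against 6.80 CPM), Ly6c2 (130.5 against 10.1 CPM), Klrd1 (129 against 11.4 CPM) and Fam241a (502 against 59.8 CPM). Itgae, under the limit of 50 CPM, was at 35.8 against 1.82 CPM. Of the 20 genes of a checkpoint and costimulation list, 3 (Vsir, Cd226 and Cd96) were higher in the naive-like cells than in the CD4 cells in 6 of 6 mice and 11 were lower in 6 of 6, and against the Ccl5-positive CD8 cells 2 were higher and 10 lower. Ctla4 was at 151 ± 41.4 CPM in the naive-like CD8 cells, 242 ± 72.3 in Ccl5-positive CD8 cells and 571 ± 204 in the CD4 cells, and Icos at 102 ± 16.9, 150.1 ± 29.2 and 313 ± 107 CPM (SD, n = 6 mice).

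**Figure D2:**
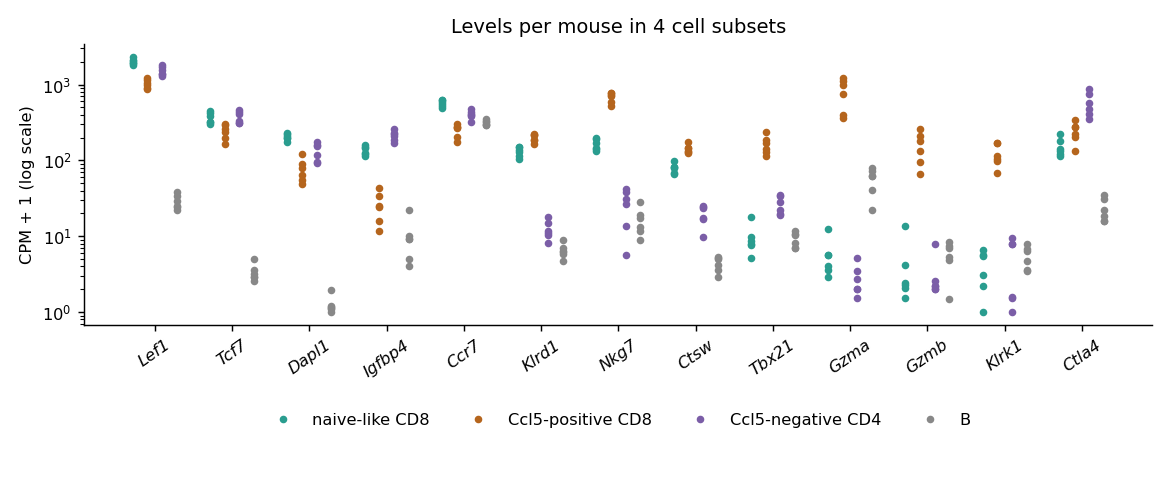
Levels of 13 genes (CPM + 1, log axis) in naive-like CD8, Ccl5-positive CD8, Ccl5-negative CD4 and B cells, 1 point per mouse and subset. Both naive-like and CD4 cells have Lef1, Tcf7 and Dapl1, with Lef1 and Dapl1 higher in the naive-like cells in 6 of 6 mice. Klrd1, Nkg7 and Ctsw are lower in them than in Ccl5-positive CD8 cells (means 129 against 197, 162 against 681 and 78.8 against 141 CPM). Gzma in the naive-like cells is at 1.87 to 11.4 CPM.

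The size of the pool was compared first. The main comparisons were the shares of CD8 T cells and of all quality barcodes, given further below. T cells were an alternative denominator, and the other settings for that share were chosen after seeing the data. Naive-like cells were 24.8%, 22% and 28.7% of T cells in the IgG1-treated mice (mean 25.2% ± 3.38, SD, n = 3) and 16.4%, 21.2% and 20.8% in the ipilimumab-treated mice (19.4% ± 2.67, SD, n = 3). The groups did not overlap, although the 95% Wilson intervals of single mice, which cover counting error only, reached from 19.2% to 25.1% in IgG1 mouse 2 and from 18.7% to 24.0% in ipilimumab mouse 2. The groups also stayed apart without IgG1 mouse 3. With barcodes of 1 Ccl5 UMI let in they barely did, with IgG1 mouse 2 at 24.02% and ipilimumab mouse 2 at 23.93%. They overlapped where at least 2 UMIs of Cd8a and Cd8b1 were asked for (21.03%, 18.2% and 27.1% against 13.9%, 18.3% and 17%). The log2 ratio was -0.37 (-0.27 without IgG1 mouse 3) and the exact two-sided permutation p was 0.1, the smallest that 3 mice against 3 can give. T cells here are all barcodes that passed the CD3 and Cd79a limits.

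As a share of CD8 T cells, naive-like cells took 58.4%, 58.6% and 60.9% in the IgG1-treated mice (59.3% ± 1.40, SD, n = 3) and 43.9%, 56.4% and 60.3% in the ipilimumab-treated mice (53.5% ± 8.59, SD, n = 3). Here the groups overlapped and the difference lay in ipilimumab mouse 1. The log2 ratio was -0.15 (exact two-sided permutation p = 0.3), without ipilimumab mouse 1 it was -0.02, and without IgG1 mouse 3 it was -0.13. With barcodes of 1 Ccl5 UMI let in, it was -0.11.

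As a share of all quality barcodes, naive-like cells took 4.55%, 3.77% and 7.27% in the IgG1-treated mice (5.196% ± 1.83, SD, n = 3) and 2.90%, 4.66% and 4.76% in the ipilimumab-treated mice (4.11% ± 1.05, SD, n = 3). The groups overlapped, and IgG1 mouse 3 alone lay above the rest. The log2 ratio was -0.34 (exact two-sided permutation p = 0.6), and without IgG1 mouse 3 it was -0.02. The share also depends on how many B cells, macrophages and structural cells each digest released.

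**Figure D3:**
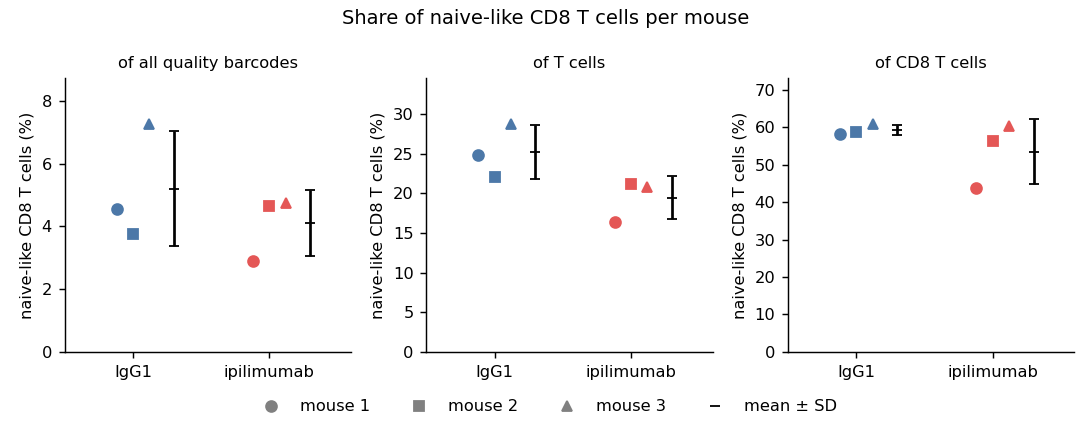
Naive-like CD8 T cells as a percentage of all quality barcodes, of T cells and of CD8 T cells in each mouse (circle, square and triangle for mouse 1, 2 and 3; bars, mean ± SD of 3 mice). The groups do not overlap among T cells and overlap in the other panels.

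Gene expression was then compared on sums per mouse with the edgeR quasi-likelihood test. Of 9125 genes tested in naive-like cells, 0 (0%) passed an adjusted p of 0.05 with an absolute log2 fold change over 0.3, and the lowest adjusted p was 0.954. At an unadjusted p under 0.05 there were 196 genes with a higher level under ipilimumab (2.15%) and 204 with a lower level (2.24%). The groups did not overlap for 339 genes on the higher side (3.72%) and 597 on the lower side (6.54%). Without the filter on low counts, edgeR called 141 genes (126 higher, 15 lower), of which 53 were among the 9125. DESeq2 called 1 gene, Tcf4, with 150 genes at an unadjusted p under 0.05. With the filter and without IgG1 mouse 3, edgeR again called 0 genes. There, 141 of 9432 genes had an unadjusted p under 0.05 on the higher side (1.49%) and 159 on the lower side (1.69%). In the barcodes with under 20 UMIs of other lineages these were 253 (2.92%) and 292 (3.37%) of 8662 genes. These percentages are the background of the list counts that follow, under the same setting. The genes below are given with their values and did not pass the edgeR test with the filter. For 39 genes refitted under other settings, 14 of 566 fold changes passed the threshold. These were Tcf4 in DESeq2 and the others without the filter on low counts.

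CTLA4, the target of the antibody, was the gene of most direct interest. Ctla4 stood at 133, 139 and 112 CPM in the IgG1-treated mice and at 178, 122 and 222 CPM in the ipilimumab-treated mice. The groups overlapped, with ipilimumab mouse 2 among the controls. The log2 fold change was 0.48 ± 0.180 (SE; edgeR adjusted p = 0.954), and leaving out 1 mouse gave from 0.28 (without ipilimumab mouse 3) to 0.67 (without ipilimumab mouse 2), with 0.40 without IgG1 mouse 3. Its own log2 fold change was -0.09 in Ccl5-positive CD8 cells and 0.13 in the CD4 cells, and the difference in effect did not pass the edgeR interaction test in either case.

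The costimulatory receptors showed no common direction. Cd28 stood at 368, 307 and 455 CPM in the IgG1-treated mice and at 329, 269.9 and 281 CPM in the ipilimumab-treated mice (log2 fold change -0.34 ± 0.153, SE, n = 3 per group). Icos stood at 85.0, 87.8 and 117 CPM against 117, 86.8 and 118 CPM (0.17 ± 0.166). Both overlapped between groups, and without IgG1 mouse 3 the log2 fold changes were -0.16 and 0.35. For Icos, leaving out 1 mouse gave from 0.07 to 0.35. Pdcd1, which encodes PD-1, lay between 0 and 6.01 CPM and was too low to be tested. Of the 15 tested genes of the checkpoint and costimulation list, 1 (Ctla4) had an unadjusted p under 0.05 on the higher side and 2 on the lower side. The 2 were Cd226, an activating receptor (97.8 to 123 CPM against 70.9 to 94.4 CPM, log2 fold change -0.40), and Tox, a transcription factor of chronically stimulated T cells (289 to 296 CPM against 202 to 259 CPM, -0.30), at -0.28 and -0.30 without IgG1 mouse 3. Without barcodes rich in other lineages, the list had 3 members on the higher and 4 on the lower side.

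The naive program gave few small p-values. Of its 24 genes, all tested, 0 had an unadjusted p under 0.05 on the higher side and 1 on the lower side, with a median log2 fold change of -0.07 against 0.00 over all genes tested. Without IgG1 mouse 3 there was 1 on each side, and without barcodes rich in other lineages there were 0 and 2. The gene over all mice was Ccr9, a chemokine receptor of thymic and gut-homing T cells, at 39.2, 40.9 and 39.1 CPM in the IgG1-treated mice and at 32.3, 18.3 and 25.2 CPM in those given ipilimumab (log2 fold change -0.63 ± 0.201, SE; edgeR adjusted p = 0.954). Lef1 stood at 2321, 2029 and 2075 CPM against 1907, 1946 and 1801 CPM, groups that do not overlap (-0.15 ± 0.0887). Tcf7 stood at 424, 317 and 450.5 CPM against 378, 302 and 318 CPM, groups that do (-0.23 ± 0.148). Leaving out 1 mouse gave from -0.37 (without IgG1 mouse 2) to -0.11 (without IgG1 mouse 3) for Tcf7. Dapl1 (224, 197 and 195 CPM against 227, 208 and 175 CPM) and Ccr7 also overlapped.

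Shares of cells with a UMI were compared for 49 genes after each barcode had been thinned to 1000 UMIs. For 5 of them (10.2%) the groups did not overlap, close to the 10.3% of all genes tested whose CPM did not overlap, each with an exact two-sided permutation p of 0.1 and an adjusted p of 0.754. Unthinned this held for 9 genes (18.4%), with a lowest adjusted p of 0.544. The values are given as a description. Lef1 had a UMI in 82.5%, 83.4% and 84.4% of barcodes of the IgG1-treated mice and in 74.0%, 78.4% and 77.9% of those of the ipilimumab-treated mice, with 2.88% in B cells. Tox had one in 26.7%, 22.1% and 24.7% against 22%, 16.5% and 17.1%, with 0.438% in B cells. Before thinning, the means were 99.5% against 97.1% for Lef1 and 70.9% against 59.6% for Tox, and neither overlapped. The others were Ccr9 (mean 4.54% against 1.79%), Igfbp4 (13.6% against 11.1%) and Txk, a kinase of T cell receptor signaling (32.1% against 39.2%). Unthinned all 3 overlapped, and the direction turned for Igfbp4 (53.1% against 54.1%) and Txk (90.3% against 89.9%).

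Immediate early genes, which T cells switch on within minutes of stimulation or stress, had 4 of 26 tested members with an unadjusted p under 0.05 on the higher side and 0 on the lower side. The list's median log2 fold change was 0.04. Jund, an AP-1 subunit, stood at 696, 689.8 and 640.1 CPM in the IgG1-treated mice and at 826, 935 and 854 CPM in the ipilimumab-treated mice, without overlap (log2 fold change 0.40 ± 0.0918, SE; edgeR adjusted p = 0.954). Ier2 stood at 233, 222 and 211 CPM against 249.6, 276 and 286 CPM, also without overlap (0.32 ± 0.0945). The others were the orphan nuclear receptors Nr4a1 (0.36) and Nr4a2 (0.28). Fos and Jun themselves overlapped between groups (0.05 and -0.25). In barcodes with under 20 UMIs of other lineages, the list had 3 members on each side, and Nr4a1 was at 0.12. Without IgG1 mouse 3 the list had 2 members on the higher side.

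Of 27 tested cytokine receptor and signaling genes, 2 had an unadjusted p under 0.05 on the higher side and 0 on the lower side, and both encode inhibitors of the JAK-STAT pathway. Socs3, a brake on IL-6 family signaling, stood at 75.9, 140.1 and 102 CPM in the IgG1-treated mice and at 162, 173 and 245 CPM in the ipilimumab-treated mice. The groups did not overlap, and IgG1 mouse 2 came closest to the treated mice. The log2 fold change was 0.91 ± 0.212 (SE; edgeR adjusted p = 0.954), and it was 0.89 without IgG1 mouse 3 and 0.92 without barcodes rich in other lineages. In Ccl5-positive CD8 cells Socs3 had a log2 fold change of 0.69 and in CD4 cells one of 0.66, measured in the same 6 mice. Socs1 stood at 26.5, 36.7 and 34.5 CPM against 36.2, 45.5 and 56.0 CPM (0.53 ± 0.196).

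**Figure D4:**
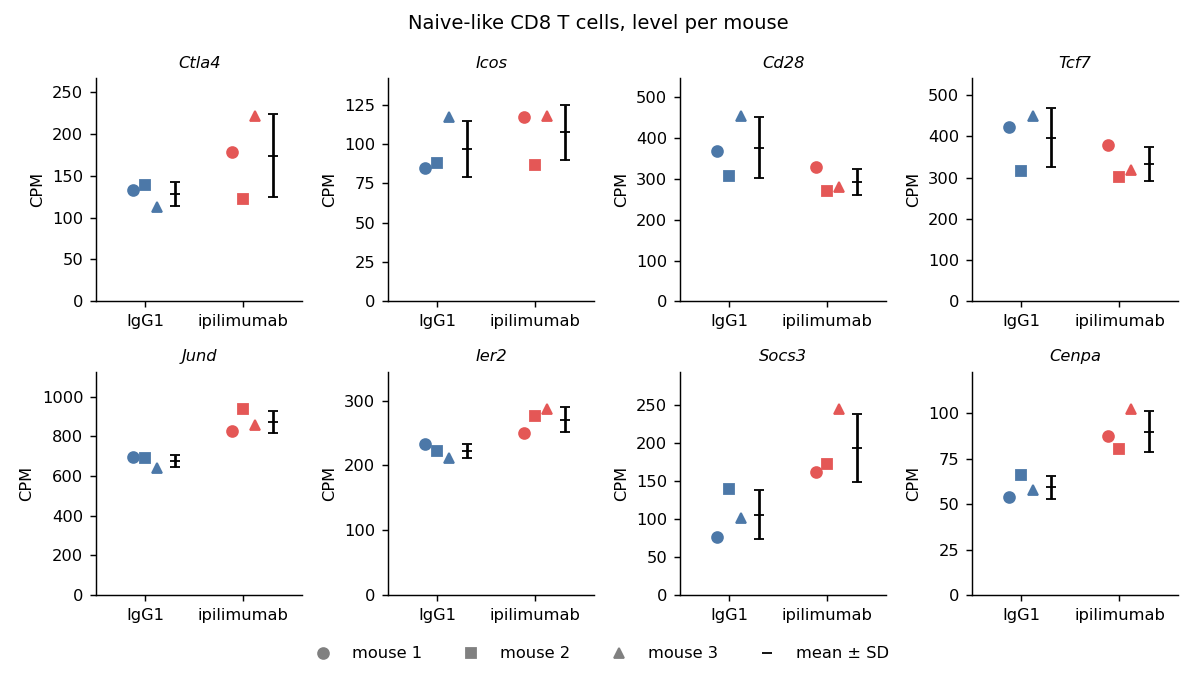
Levels in CPM of 8 genes in the naive-like CD8 T cells of each mouse (circle, square and triangle for mouse 1, 2 and 3; bars, mean ± SD of 3 mice). The groups overlap for Ctla4, Icos, Cd28 and Tcf7 and do not overlap for Jund, Ier2, Socs3 and Cenpa, of which none passed the adjusted test.

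Of 26 tested T cell receptor signaling genes, 5 had a log2 fold change above 0, against 4578 of all 9125 genes, and the median was -0.15. Without IgG1 mouse 3, 9 of the 26 were above 0 and the median was -0.07. On the lower side 1 of the 26 had an unadjusted p under 0.05, against 2.24% of all genes. This was Themis, a regulator of T cell receptor signal strength (620, 553 and 713 CPM against 565, 488 and 432 CPM). Its log2 fold change was -0.32, and from -0.43 to -0.20 with 1 mouse left out, the least without IgG1 mouse 3. Without that mouse no gene of the list had an unadjusted p under 0.05, whereas without barcodes rich in other lineages 1 was on the higher and 4 on the lower side. Interferon-stimulated genes had 2 of 28 tested members on the higher side and 1 on the lower side, with a median of 0.14, which was 0.03 without barcodes rich in other lineages and 0.04 without IgG1 mouse 3. The 2 were Irf9, a subunit of the interferon-induced complex ISGF3 (0.44), and the interferon-inducible GTPase Iigp1 (0.89), and the 1 was Slfn1 (-0.33). Of 16 tested memory and virtual memory genes, 0 were on the higher side and 1, Eomes, on the lower side (20.4, 7.82 and 18.3 CPM against 7.76, 7.85 and 10.3 CPM). Without IgG1 mouse 3 the memory list had 0 on both sides.

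Cell division genes had 2 of 19 tested members on the higher side and 0 on the lower side, with a median log2 fold change of 0.25. Without IgG1 mouse 3, 1 of 21 was on each side and the median was 0.07. Without barcodes rich in other lineages, 5 of 19 members were on the higher side, against 2.92% of all genes, and the median was 0.48. Cenpa, the histone of the centromere, stood at 54.0, 66.2 and 57.8 CPM in the IgG1-treated mice and at 87.3, 80.6 and 102 CPM in the ipilimumab-treated mice (0.64 ± 0.133, SE; edgeR adjusted p = 0.954). Tuba1b, a tubulin, was the other (0.41). Few naive-like barcodes held several division genes, as given above. Ribosomal protein genes had 76 of 81 tested members with a log2 fold change above 0, a median of 0.09 and none at an unadjusted p under 0.05. In survival genes, 1 of 19 tested members was on each side: Fas, the death receptor (0.43), and Bbc3, which encodes the cell death protein PUMA (-0.85).

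Several of the smallest p-values belonged to genes of other lineages. Tcf4, a transcription factor of B cells and plasmacytoid dendritic cells, stood at 11.7, 4.81 and 8.46 CPM in the IgG1-treated mice and at 49.2, 17.3 and 48.5 CPM in the ipilimumab-treated mice (log2 fold change 2.19 ± 0.412, SE; edgeR adjusted p = 0.954). In barcodes with under 20 UMIs of other lineages it was 4.98, 4.51 and 8.56 CPM against 14.0, 11.03 and 4.83 CPM, the groups overlapped and the log2 fold change was 0.65. Napsa (0.509, 1.203 and 0 CPM against 7.76, 6.80 and 5.60 CPM) was too low to be tested in those barcodes. The MHC class II genes H2-Aa, H2-Ab1 and H2-Eb1 of antigen-presenting cells had log2 fold changes of 2.20, 2.12 and 2.38. These were 1.15, 0.99 and 1.35 without ipilimumab mouse 3, and up to 3.60, 3.67 and 2.96 without another mouse. In barcodes with under 20 UMIs of other lineages they were 0.42, 0.46 and 0.10.

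Scgb1a1, the secretory protein of airway club cells, kept its difference in those barcodes. It stood at 8.15, 8.42 and 2.47 CPM in the IgG1-treated mice and at 86.7, 36.1 and 15.4 CPM in the ipilimumab-treated mice (log2 fold change 2.95, and 2.83 without barcodes rich in other lineages). The same gene had a log2 fold change of 3.23 in Ccl5-positive CD8 cells and of 2.03 in CD4 cells, and its interaction in either comparison had an adjusted p above 0.05 by edgeR. T cells are not known to express it. In B cells of the same libraries it stood at 10.5, 10.7 and 957 CPM under IgG1 and at 321, 70.9 and 28.9 CPM under ipilimumab, groups that overlap, and the part of free RNA in the T cell values was not tested.

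The remaining genes of the 10 with the smallest p were Sla2, Gpat4, Ier5l and Poli. Ier5l and Poli were of low level (at most 20.4 and 10.9 CPM in a mouse). Sla2, an adaptor that dampens T cell receptor signaling, stood at 30.0, 34.9 and 30.7 CPM in the IgG1-treated mice and at 47.9, 48.1 and 48.1 CPM in the ipilimumab-treated mice (log2 fold change 0.63 ± 0.143, SE, n = 3 per group). Gpat4, an enzyme of glycerolipid synthesis, had a log2 fold change of 0.70, Ier5l one of 2.06 and the DNA polymerase gene Poli one of -1.81. The groups did not overlap for any of these 4 genes, but they were chosen for their small p, so this is no further support.

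**Figure D5:**
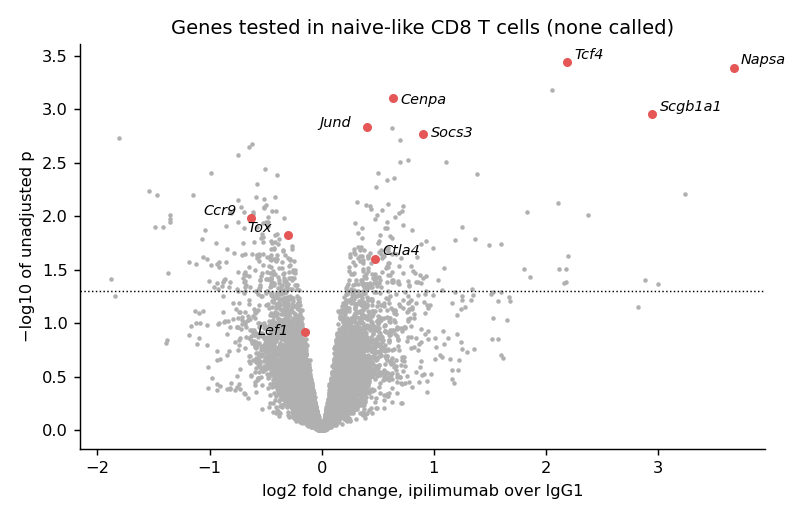
Each point is 1 of 9125 genes tested in naive-like CD8 T cells, with its log2 fold change (ipilimumab over IgG1) against -log10 of its unadjusted edgeR p. The dotted line marks an unadjusted p of 0.05, and the 10 labeled genes (red) include Tcf4 at 2.19 and Socs3 at 0.91. No gene passed the adjusted test.

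Whether the effect of ipilimumab differed between subsets was tested as an interaction with the mouse as a block. Against Ccl5-positive CD8 cells, 0 of 9782 genes (0%) passed by edgeR and 319 (3.26%) had an unadjusted p under 0.05. Without the filter on low counts, 60 genes passed (38 higher, 22 lower), 45 of them among the 9782. With the filter, Crip1, a LIM domain protein of memory T cells, had the smallest p. In naive-like cells it stood at 378, 435 and 317 CPM under IgG1 and at 515, 459.8 and 443 CPM under ipilimumab, a log2 fold change of 0.36, and had one of -0.37 in the Ccl5-positive cells (difference 0.74 ± 0.124, SE, adjusted p = 0.953).

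Against the CD4 cells, 0 of 9802 genes (0%) passed by edgeR and 424 (4.33%) had an unadjusted p under 0.05. Without the filter on low counts, 85 genes passed (42 higher, 43 lower), 64 of them among the 9802. With the filter, Kcnq5, a potassium channel gene, came closest to the threshold. In naive-like cells it stood at 81.0, 84.2 and 63.1 CPM under IgG1 and at 59.5, 36.6 and 91.5 CPM under ipilimumab (log2 fold change -0.24), and had a log2 fold change of 0.74 in CD4 cells (difference -0.998 ± 0.124, SE, adjusted p = 0.0797). Cd226, already named, had a log2 fold change of -0.40 in naive-like cells and 0.54 in CD4 cells (difference -0.95 ± 0.183, SE, adjusted p = 0.698).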

How the data were processed

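Per the labels and methods, the authors aligned 10x Genomics 3′ v3.1 libraries to mm10 with Cell Ranger. What they deposited are whole UMI counts per gene (32285) and barcode, filled and empty, before any correction for ambient RNA or filtering. The submitters' processing notes name Cell Ranger 7.0.0, the matrix header names Cell Ranger 4 and the methods name another version, so the version is not settled here.

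Barcodes were filtered and gated as the report states, and UMIs were summed per mouse and subset. Ccl5-positive CD8 cells had at least 1 Ccl5 UMI. CD4 cells had at least 1 Cd4 UMI and none of Cd8a, Cd8b1, Ccl5, Cd79a or Foxp3, and B cells had at least 1 Cd79a UMI and no CD3 UMI. No doublet caller was run, and barcodes with 20 or more UMIs of B, myeloid, endothelial, epithelial and mesenchymal markers were left out as an alternative chosen after seeing the data (Cd74, Pecam1, Calcrl, Ctsd and Ighm not counted). Sums were tested with edgeR 4.0.16 in R 4.3.3 (quasi-likelihood, TMM factors, filterByExpr, Benjamini-Hochberg over all genes tested), and the steps were tested on simulated data. The SE was taken as fold change over the root of the F statistic, on the log2 scale. CPM are per total UMIs, while fold changes use TMM factors. Shares were compared by exact permutation tests (scipy 1.17.1). DESeq2 1.42.0, RLE factors, no filter, other gates, a replicate block and leaving out each mouse were alternatives.

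Named genes are the gate and marker genes, the 10 with the smallest p by edgeR (which called none), members of 27 lists with an unadjusted p under 0.05 or among the 3 highest of a list, and Ctla4, Icos, Tcf7, Cd28 and Pdcd1. Further genes named were chosen after their values were seen, and 3 list symbols matched no gene. The members and lists were chosen with earlier results of these data known. Positions are from GENCODE vM21. A gene of the naive list is not reported by name here.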

Additional observations from a re-analysis of the deposited data

How the results depend on the processing

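Of 31 counts of called genes under other settings, 27 were the same as with the settings of the report and 4 moved. The 37 log2 ratios of shares kept their sign, and their exact p could not pass 0.05 in this design, so their side of the threshold says nothing about stability. Without the filter on low counts edgeR called 141 genes in naive-like cells (126 higher, 15 lower, 53 of them among the genes tested with the filter), 60 genes in the interaction with Ccl5-positive CD8 cells and 85 in that with CD4 cells, against 0 in each with the filter, and DESeq2 called 1 gene (Tcf4); the cause was not tested. Leaving out each mouse in turn called from 0 to 0 genes in all 3 comparisons. It gave log2 ratios from -0.52 to -0.02 for the share of all barcodes, the least without IgG1 mouse 3, and from -0.24 to -0.02 for the share of CD8 cells, the least without ipilimumab mouse 1. Other gates gave -0.51 to -0.26 and -0.17 to -0.11. For the share of T cells, whose settings were chosen after seeing the data, these ranges were -0.46 to -0.26 and -0.45 to -0.34.

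Without thinning, the difference between groups in the share of cells with a UMI changed sign for 12 of 49 genes. In percentage points it was then 1.99 for Dapl1, -0.22 for Ccr7, -0.50 for Bach2, -2.17 for S1pr1, -0.43 for Txk, 0.93 for Igfbp4, -4.27 for Btla, -3.46 for Cd27, -1.02 for Tnfrsf9, -2.27 for Ly6c2, -3.05 for Itgae and -4.70 for Nkg7. The log2 fold change of Mgp, 1 of 39 genes whose fold changes were refitted, was -0.13 without ipilimumab mouse 3 and up to 4.83 without another mouse (2.999 with all). Of 566 fold changes of these genes under other settings, 14 passed the threshold, 13 of them without the filter and Tcf4 in DESeq2. In barcodes with under 20 UMIs of other lineages, a setting chosen after seeing the data, edgeR called 0 genes and the log2 fold change of Tcf4 was 0.65.

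Same-numbered mice are not stated to be paired. Correlations of their deviations from the group means were -0.28, 0.15 and -0.40, and highest for IgG1 mouse 3 with ipilimumab mouse 1 (0.49). With 3 mice per group these deviations constrain one another, so the correlations cannot settle whether mice were paired. With a replicate block, edgeR called 0 genes, 260 at an unadjusted p under 0.05 (400 without), and the shares of all barcodes, CD8 cells and T cells had log2 ratios of -0.32, -0.16 and -0.37. From 150 to 243 barcodes per mouse limit genes of low level.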

Other observations

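Lars2 and Gm42418, 2 genes chosen after their values were seen, lay lower in the naive-like cells of all 3 ipilimumab-treated mice. Lars2, a mitochondrial leucyl-tRNA synthetase gene, stood at 419, 294 and 381 CPM in the IgG1-treated mice and at 268, 218 and 211 CPM in the ipilimumab-treated mice (log2 fold change -0.62; edgeR adjusted p = 0.954). Gm42418 stood at 15213, 12679 and 13365 CPM against 11612, 8179 and 8671 CPM (-0.50; edgeR adjusted p = 0.954). Neither passed the test.

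Over all quality barcodes, 15.8%, 13.0% and 45.3% had no UMI of the 4 Y-linked genes in the IgG1-treated mice and 24.8%, 12.1% and 13.5% in the ipilimumab-treated mice. Xist had 1, 2 and 2 UMIs per library in the former and 4, 0 and 2 in the latter. No cause of the value in IgG1 mouse 3 was tested.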
